A study of Homo sapiens with 4 samples.

Results

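The DNA replication machinery was followed in K562 cells as 45 named genes out of the 61498 genes in the expression tables, chosen by symbol for what their proteins do, with no measured value in the rule. They comprise the 6 subunits of the origin recognition complex, the licensing factors CDC6 and CDT1, the 6 subunits of the MCM2-7 helicase, 6 genes of helicase activation, 9 of the replicative polymerases and primase, the sliding clamp and its 5 loader subunits, the 3 subunits of RPA, FEN1 and LIG1 for the joining of Okazaki fragments, 4 genes of nucleotide supply, and UHRF1. Each symbol matched 1 gene, and all 45 genes passed the filter on low counts.

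K562 is a human erythroleukaemia line, and hemin, an iron porphyrin, induces erythroid features in it. Poly(A) RNA was sequenced from 2 libraries of untreated cells and 2 libraries of cells kept with 50 µM hemin for 108 h, with no other treatment or genetic change named in the labels. According to the labels, this dose left proliferation unaffected. Nothing in them says that the replicates were separate cultures, so the p-values measure the spread between these libraries only, which may be technical.

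Replication origins are licensed when the origin recognition complex, CDC6 and CDT1 load the MCM2-7 ring onto DNA as an inactive helicase. In S phase the ring is joined by CDC45 and GINS, after which primase and polymerase alpha start each strand, polymerases epsilon and delta extend it on the PCNA clamp, and FEN1 and DNA ligase I seal the lagging strand. Many of these genes are transcribed as cells enter S phase, under E2F factors, and erythroid precursors divide several times before they leave the cycle.

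The expected counts (reads that the program RSEM assigned to each gene) summed to between 7455447 and 8241534 per library, with 12.8% to 13.6% on mitochondrial genes. All 12 erythroid markers examined were tested, among them GATA1, TAL1 and HBE1. Summed over these 12 genes, CPM (counts scaled to the size of their library, with TMM factors) were 3252 and 3406 in the untreated libraries and 4174 and 3988 in the hemin libraries. Of the 12, 4 passed the threshold upward and 2 downward, against 7.0% and 7.14% of all genes tested. Among 15 markers of other cell types, CD3E, CD2 and MS4A1 had no count in any library and the other 6 markers of T cells, B cells and monocytes had at most 14 counts. That leaves 6 epithelial and fibroblast markers, of which EPCAM, KRT8, KRT18 and COL1A2 were expressed. Only these 4 of the 15 passed the filter on low counts. Their summed CPM was 423 and 441 untreated and 386 and 376 with hemin. Of the 4, KRT8 passed the threshold downward (log2 fold change -0.42, edgeR adjusted p = 9.1e-04). The part of these shifts in the results below was not tested.

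After hemin, some of the replication genes rose, each by a modest amount. Of the 45 members, 15 passed the threshold upward and 0 downward (edgeR's quasi-likelihood test on all 14458 genes that passed the filter, Benjamini-Hochberg adjusted p under 0.05). Over all genes tested, 7.0% passed upward and 7.14% downward. The members were read more deeply than the average gene, with a median over members of 522 counts against 177 for all genes tested. Among the 8986 genes with a mean count of at least 100, 10.7% passed upward and 8.82% downward. The median log2 fold change, hemin over untreated, was 0.15 for the members and -0.0048 for all genes tested. A total of 36 members had a positive value and 9 a negative one, against 49.1% of all genes tested with a positive value. Without adjustment, 21 members had a p under 0.05 upward and 0 downward, against 14.8% and 14.6% of all genes tested.

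The summed CPM of the 45 members was 3906 and 4024 in the untreated libraries and 4562 and 4539 in the hemin libraries, an increase of 14.7%. Both hemin libraries lay above both untreated libraries for 26 members, below them for 2 (RFC5 and RPA3), and the groups overlapped for 17. Of all genes tested, 28.1% lay above and 29.3% below. In bulk RNA, a larger share of cells in S phase and more of each transcript per cell cannot be told apart. The plot of all members by role shows that the higher values were spread unevenly over the machinery, with the whole MCM2-7 ring past the threshold and the origin recognition complex and RPA without a gene past it.

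**Figure D1:**
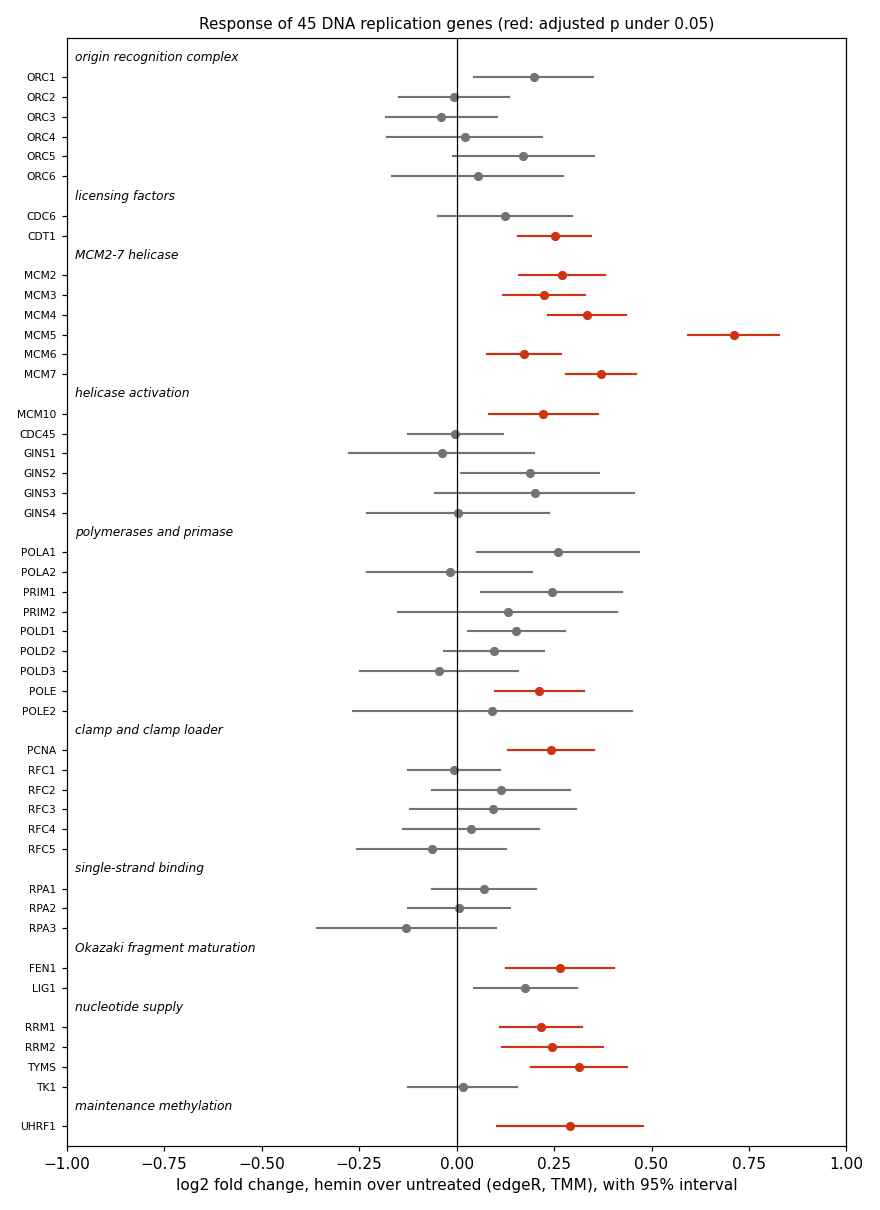
Log2 fold change of each of the 45 members (hemin over untreated, x axis) with its 95% interval, grouped by role. Red points are the 15 genes past the threshold, grey the other 30; MCM5 stands apart at 0.71, and every red interval lies above 0.

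Sequences before the start sites of the members are shown first, since a word of the E2F type was common among them. The words searched were TTTCCCGC, TTTGGCGC, TTTGCCGC and TTTCGCGC, on both strands, in RefSeq windows (GRCh38.p14) from 250 bases before to 50 bases after each start site. Such windows were given for 39 of the 45 members, not for GINS4, MCM4, MCM5, POLD3, RPA2 and RPA3. The word was in 20 of 51 member windows (39.2%), against 3.32% of all 35116 windows of this length and 5.07% of windows of tested genes. Counted by gene, 19 of 39 members held it (48.7%), against 6.83% of the 10024 tested genes with a window. Of the other replication genes described further below, 13 of 47 with a window held it (27.7%). It was in 9 of 13 members past the threshold and in 10 of 26 that were not. CCAAT, a word bound by NF-Y, was in 24 of 39 members (61.5%), against 43.5% of tested genes with a window. Among the other replication genes CCAAT was in 26 of 47 (55.3%), close to the share of the members. By window, CCAAT was in 30 of 51 of the members (58.8%), against 34.6% of all windows and 35.3% of windows of tested genes. Both words were searched by their letters alone, and a match is a description of the sequence, not a site that was shown to be bound.

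The stretches below run 5′ to 3′ on the gene's strand, with each E2F-type word, on either strand, in capitals. The first 6 are from genes that passed the threshold, and RFC3 and POLA2 are from genes that did not. For MCM6, CDT1, PCNA and TYMS the stretch ends at the base before the RefSeq start site. GENCODE 44 begins PCNA slightly further upstream, at chr20:5126626, so the last bases of its stretch lie inside the gene as annotated there. For MCM3, MCM7, RFC3 and POLA2, where GENCODE 44 places exons further upstream, at most 10 bases are shown on each side of 1 word, that nearest the start among those lying wholly before it. A further word of MCM3 begins at -4, runs across its start site and is not printed.
MCM3 (chr6:52284899-52284926, minus strand): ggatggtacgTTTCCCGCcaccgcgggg
MCM6 (chr2:135876444-135876605, minus strand): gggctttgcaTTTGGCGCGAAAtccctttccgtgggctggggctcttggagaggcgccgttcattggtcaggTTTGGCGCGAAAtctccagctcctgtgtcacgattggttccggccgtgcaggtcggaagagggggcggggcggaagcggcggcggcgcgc
MCM7 (chr7:100101398-100101416, minus strand): gggggcgacgTTTCGCGCc
CDT1 (chr16:88803729-88803788, plus strand): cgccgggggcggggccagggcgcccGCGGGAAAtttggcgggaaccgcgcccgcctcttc
PCNA (chr20:5126623-5126691, minus strand): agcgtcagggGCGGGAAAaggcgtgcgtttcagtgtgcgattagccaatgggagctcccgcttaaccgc
TYMS (chr18:657593-657652, plus strand): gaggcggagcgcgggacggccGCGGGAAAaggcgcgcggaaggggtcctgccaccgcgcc
RFC3 (chr13:33818084-33818111, plus strand): tttggagctcGCGGGAAAacttgtctct
POLA2 (chr11:65261899-65261926, plus strand): tggctcccggTTTCGCGCatgcgtgcac
In MCM6 each capital run of 12 letters holds overlapping words on opposite strands, so its 4 matches form 2 runs. CDT1, PCNA, TYMS and RFC3 carry the same 8 letters, GCGGGAAA, the reverse complement of TTTCCCGC, although RFC3 had a log2 fold change of 0.09 (edgeR adjusted p = 0.57) and the other 3 passed the threshold. All 4 MCM2-7 genes with a window (MCM2, MCM3, MCM6 and MCM7) held the word. That of MCM2 lies just past its start site and is not printed.

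The loading of the helicase begins with the origin recognition complex, the ATPase that marks origins. None of its 6 subunits passed the threshold, and their log2 fold changes ran from -0.04 to 0.20. ORC1, the largest subunit and one regulated through the cell cycle, had the highest value, with 81.9 and 86.5 CPM untreated and 91.0 and 102 CPM with hemin (log2 fold change 0.20, standard error 0.07, edgeR adjusted p = 0.083). Both hemin libraries were above both untreated ones, as they were for ORC5 (0.17). ORC3 had the lowest, with 62.1 and 64.1 CPM untreated and 62.2 and 60.6 CPM with hemin (-0.04, 95% interval -0.18 to 0.10). ORC2, ORC4 and ORC6 also overlapped between the groups.

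Of the licensing factors, CDT1, which brings MCM2-7 to the origin and is degraded once S phase starts, had 228 and 236 CPM untreated and 275 and 277 CPM with hemin. It rose by a log2 fold change of 0.25 (standard error 0.04, edgeR adjusted p = 0.0053), and each hemin library was above each untreated one. CDC6, its ATPase partner, had 40.2 and 41.1 CPM untreated and 45.7 and 43.0 CPM with hemin, without overlap (0.12, 95% interval -0.05 to 0.30, edgeR adjusted p = 0.32). CDT1 passed the threshold in every fit that left out 1 library, and CDC6 in none.

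The MCM2-7 ring, the motor of the replicative helicase, rose as a whole. All 6 of its genes passed the threshold, against 10.7% upward among genes with a mean count of at least 100. For each of the 6, both hemin libraries lay above both untreated libraries, as they did for 28.1% of all genes tested. Their summed CPM was 1103 and 1118 untreated and 1408 and 1404 with hemin, an increase of 26.6%. The 6 genes lie on different chromosomes of GRCh38, namely MCM2 at chr3:127598410-127622436, MCM3 at chr6:52264014-52284881, MCM4 at chr8:47960185-47978160, MCM5 at chr22:35400134-35425431, MCM6 at chr2:135839626-135876443 and MCM7 at chr7:100092233-100101940 (GENCODE 44).

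MCM5 (ENSG00000100297), the subunit that sits beside MCM2 at the gate of the ring, rose most of all members. It had 121 and 112 CPM untreated and 189 and 193 CPM with hemin. The hemin libraries were close to each other and far above the untreated pair, and the rise was 1.64-fold (log2 fold change 0.71, standard error 0.05, 95% interval 0.59 to 0.83, edgeR adjusted p = 1.2e-04). RSEM's posterior SD of its count was 0, so the division of reads between genes left no uncertainty in it.

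MCM7 had 281 and 288 CPM untreated and 365 and 370 CPM with hemin (log2 fold change 0.37, 95% interval 0.28 to 0.46, edgeR adjusted p = 7.3e-04). MCM4, which forms the catalytic core of the ring with MCM6 and MCM7, had 227 and 239 CPM untreated and 297 and 291 CPM with hemin (0.33, 95% interval 0.23 to 0.43, edgeR adjusted p = 0.0018). In both genes the gap between the groups was wider than the spread within them, and both kept their call whichever library was left out. MCM2, the subunit that also binds histones, had 130 and 137 CPM untreated and 163 and 159 CPM with hemin (0.27, standard error 0.05, edgeR adjusted p = 0.0078). MCM3 had 155 and 148 CPM untreated and 178 and 176 CPM with hemin (0.22, standard error 0.05, edgeR adjusted p = 0.013). MCM6 changed least, with 190 and 194 CPM untreated and 217 and 216 CPM with hemin (0.17, 95% interval 0.08 to 0.27, edgeR adjusted p = 0.026), and it missed the threshold in each fit that left out 1 library.

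The subunits therefore did not move by equal amounts. The interval of MCM5 lay above those of the other 5, the nearest being that of MCM7, which ended at 0.46. MCM5 was singled out after its values were seen. On the log2 CPM scale it stood below the mean of its 5 partners by 0.64 and 0.79 in the untreated libraries and by 0.30 and 0.25 in the hemin libraries, a difference of 0.44 (exact permutation test over the 4 libraries, two-sided p = 0.333, the smallest that 2 against 2 allows). MCM2, MCM3 and MCM6, each set against its own 5 partners, gave the same p, so this test cannot set MCM5 apart. In TPM, the unit of RSEM that also scales by transcript length, MCM5 made up 15.1% and 14.4% of the summed MCM2-7 level without hemin and 18.8% and 18.5% with it. The share of MCM4 was also higher in both hemin libraries, at 19.9% and 18.1% without hemin and 20.2% and 20.4% with it. The share of MCM7 stayed between 28.6% and 29.0%, and that of MCM2, MCM3 and MCM6 was lower in both hemin libraries than in both untreated ones.

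**Figure D2:**
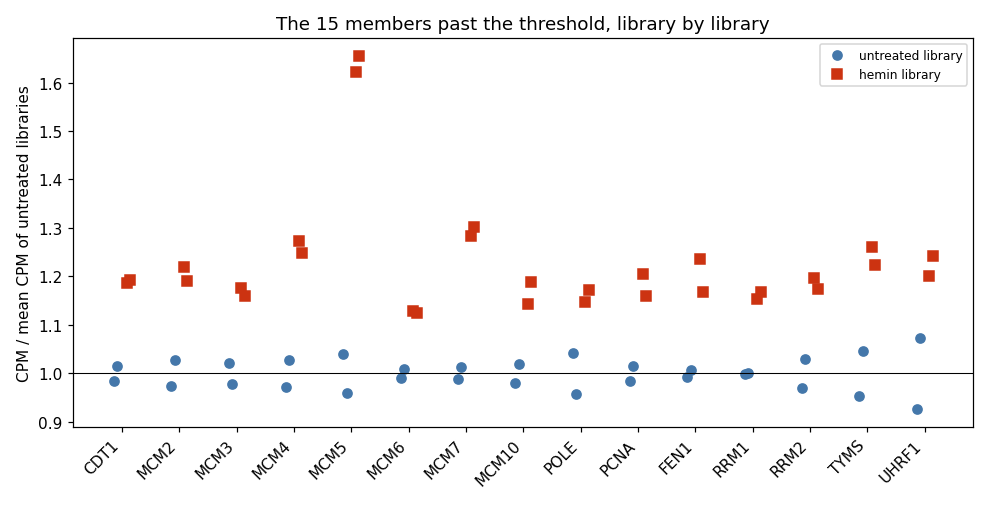
CPM in each library divided by the mean of the untreated libraries (y axis) for the 15 members past the threshold (x axis), circles for untreated and squares for hemin libraries. In every gene both squares lie above both circles, and MCM5 is near 1.6 while most others lie between 1.1 and 1.3.

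Of 6 genes that turn the loaded ring into an active helicase, 1 passed (10.7% upward among genes with a mean count of at least 100). This was MCM10, which is not part of the ring but helps to activate it, with 61.2 and 63.6 CPM untreated and 71.3 and 74.1 CPM with hemin. Its groups did not overlap, but the call was close to the threshold (log2 fold change 0.22, standard error 0.06, edgeR adjusted p = 0.044) and was lost in each fit without 1 library (edgeR adjusted p up to 0.18). CDC45, which joins the ring at the moment of firing, had 145 and 158 CPM untreated and 148 and 154 CPM with hemin, with overlapping groups (-0.0037, 95% interval -0.13 to 0.12). The 4 GINS subunits ran from GINS1, with 28.6 and 34.1 CPM untreated and 31.7 and 29.2 CPM with hemin (-0.04, 95% interval -0.28 to 0.20), to GINS3 (0.20, edgeR adjusted p = 0.28), and none passed. A rise of the size seen in CDT1 lay above the intervals of CDC45, GINS1 and GINS4 and inside those of GINS2 and GINS3.

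Among the polymerases and primase, 1 of 9 genes passed, near the 10.7% upward among all genes with a mean count of at least 100. POLE, the catalytic subunit of polymerase epsilon, which copies the leading strand, had 194 and 178 CPM untreated and 213 and 218 CPM with hemin (log2 fold change 0.21, standard error 0.05, edgeR adjusted p = 0.023). Its TPM overlapped between the groups, at 55.7 and 46.2 untreated and 51.3 and 55.5 with hemin. POLA1, the catalytic subunit of polymerase alpha, had the highest value of the group but fewer reads, with 28.5 and 31.4 CPM untreated and 37.5 and 34.2 CPM with hemin (0.26, standard error 0.09, edgeR adjusted p = 0.094). PRIM1, the small primase subunit, was near it (0.24, edgeR adjusted p = 0.074), and in both genes the hemin libraries were above the untreated ones. POLD1, the catalytic subunit of polymerase delta, had a value of 0.15 (edgeR adjusted p = 0.098). POLD3 was lowest, with 27.2 and 29.0 CPM untreated and 27.5 and 26.9 CPM with hemin (-0.05, 95% interval -0.25 to 0.16). POLD2, POLA2, PRIM2 and POLE2 lay between -0.02 and 0.13. POLA2 shares 16.8% of its exonic bases with the gene ENSG00000285816, read on the same strand, and had the highest posterior SD of the members, 5.11% of its count.

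PCNA, the clamp that holds polymerases on DNA, had 126 and 130 CPM untreated and 154 and 149 CPM with hemin. It rose by a log2 fold change of 0.24 (standard error 0.05, edgeR adjusted p = 0.012), with no overlap. None of the 5 subunits of RFC, the complex that loads it, passed. They ran from RFC5, with 33.1 and 31.8 CPM untreated and 30.3 and 31.7 CPM with hemin (-0.06, 95% interval -0.25 to 0.13), to RFC2 (0.11, edgeR adjusted p = 0.38). The difference between the clamp and its loader was not itself tested.

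RPA coats the single strands behind the helicase, and none of its 3 genes passed the threshold, with a median log2 fold change of 0.0071. RPA1, the large subunit, had 98.6 and 94.5 CPM untreated and 105 and 97.5 CPM with hemin (log2 fold change 0.07, 95% interval -0.06 to 0.20). RPA3, the smallest, had 27.2 and 27.4 CPM untreated and 26.8 and 23.2 CPM with hemin (-0.13, 95% interval -0.36 to 0.10), the lowest value of all members. RPA2 stood at that median with overlapping groups.

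FEN1, the nuclease that trims the flap of each Okazaki fragment, had 65.9 and 66.9 CPM untreated and 82.1 and 77.5 CPM with hemin (log2 fold change 0.26, standard error 0.06, edgeR adjusted p = 0.022). LIG1, the ligase that seals the remaining nick, had 84.2 and 79.5 CPM untreated and 90.5 and 94.4 CPM with hemin (0.18, standard error 0.06, edgeR adjusted p = 0.077). Both hemin libraries were above both untreated ones in each gene, although only FEN1 passed the threshold. With DESeq2 FEN1 did not pass (DESeq2 adjusted p = 0.076).

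Of the 4 genes of nucleotide supply, 3 passed the threshold upward, against 10.7% of genes with a mean count of at least 100. RRM1 and RRM2, among these 3, were higher in reads but not per length, as described below. TYMS, thymidylate synthase, had 130 and 143 CPM untreated and 172 and 167 CPM with hemin (log2 fold change 0.31, standard error 0.06, edgeR adjusted p = 0.0066) and kept its call whichever library was left out. ENOSF1, transcribed from the opposite strand, overlaps 39.9% of the exonic bases of TYMS. No strand option was stated for the counting, so reads from the shared bases cannot be told apart. RSEM's posterior SD for TYMS was 0.56% of its count. TK1, the salvage kinase for thymidine, had 66.4 and 64.1 CPM untreated and 65.1 and 66.8 CPM with hemin, with overlap (0.02, 95% interval -0.12 to 0.16).

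RRM1 and RRM2 encode the large and small subunits of ribonucleotide reductase, which makes deoxynucleotides. RRM1 had 122 CPM in both untreated libraries and 141 and 143 CPM with hemin (log2 fold change 0.22, edgeR adjusted p = 0.017). RRM2 had 77.0 and 81.7 CPM untreated and 94.9 and 93.2 CPM with hemin (0.25, edgeR adjusted p = 0.022). Both were higher in reads without overlap, but not per length. In TPM, RRM2 was 78.7 and 83.4 untreated and 72.1 and 82.0 with hemin, and RRM1 was 81.3 and 84.9 untreated and 80.9 and 89.3 with hemin. The effective length that RSEM assigned, an average over the isoforms it estimated, was longer with hemin by 0.30 on the log2 scale for RRM2 and by 0.15 for RRM1. The median change in that length over the 45 members was -0.0029. On the log2(TPM + 1) scale limma gave -0.07 for RRM2, the opposite sign.

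UHRF1, which reads hemimethylated DNA behind the fork and recruits the maintenance methyltransferase DNMT1, had 42.7 and 49.5 CPM untreated and 55.4 and 57.3 CPM with hemin. The rise was close to the threshold (log2 fold change 0.29, standard error 0.08, edgeR adjusted p = 0.048). It was past the threshold in 1 of the 4 fits that left out a library.

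Levels were compared between genes per length. In TPM, MCM7 was the most abundant MCM subunit (179 and 176 untreated, 224 and 225 with hemin), followed without hemin by MCM4 (123 and 111), MCM5 (93.0 and 88.2), MCM3 (83.5 and 83.2), MCM6 (73.7 and 82.7) and MCM2 (65.1 and 72.5). No neighbours in this order overlapped, although MCM3 and MCM6 differed by less than the spread of MCM6. With hemin MCM5 reached 147 and 146 TPM, close below MCM4 at 158 and 161 and well above MCM3 at 89.8 and 93.6. CDC45 stood at 130.5 to 153 TPM over the 4 libraries, whereas the 4 GINS genes, whose proteins join the same helicase, lay between 11.3 and 38.9 TPM. In polymerase delta, POLD2 had 189 to 212 TPM and POLD3 14.7 to 19.7 TPM. POLA1 was the lowest member, at 8.41 and 9.89 TPM untreated and 10.4 and 11 TPM with hemin.

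**Figure D3:**
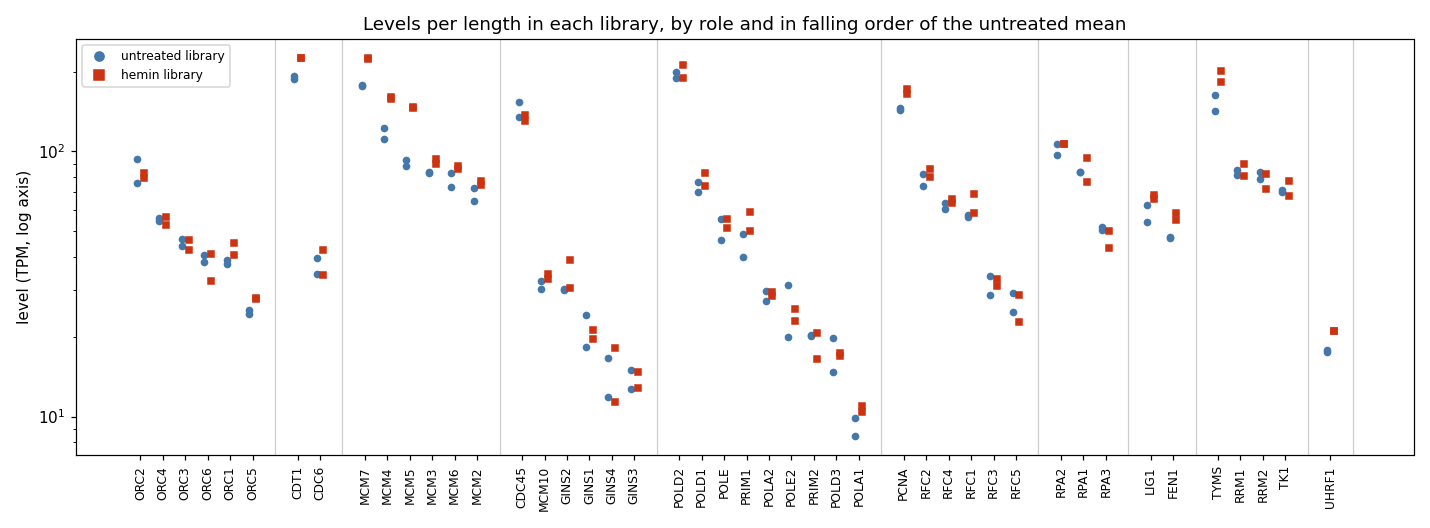
Level of each member in TPM (log axis) in each library, circles for untreated and squares for hemin, arranged by role and within a role by falling untreated mean. Levels span from about 8 TPM for POLA1 to 225 TPM for MCM7, and MCM5 moves from the level of MCM3 toward that of MCM4.

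A further 56 genes that act with this machinery were all tested. Of these, 13 passed the threshold upward and 0 downward, against 7.0% and 7.14% of all genes tested. The median log2 fold change of the 56 was 0.11, with 41 positive values. At an unadjusted p under 0.05, 20 were higher and 3 lower, against 14.8% and 14.6% of all genes tested. With 1 library left out, 3 to 9 passed upward, and POLE3 and SUPT16H were the genes that passed in all 4 such fits. The smallest p belonged to POLE3, a histone-fold subunit of polymerase epsilon, with 80.3 and 76.5 CPM untreated and 96.8 and 100 CPM with hemin (0.33, edgeR adjusted p = 0.0063). SUPT16H and SSRP1, which together form the histone chaperone FACT, came next. SUPT16H had 208 and 206 CPM untreated and 240 and 252 CPM with hemin (0.25, edgeR adjusted p = 0.0069), and SSRP1 had 233 and 228 CPM untreated and 267 and 270 CPM with hemin (0.22, edgeR adjusted p = 0.0093). In all 3 genes the hemin libraries lay above the untreated ones.

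Of the 7 histone chaperones in the list, 4 passed upward, against 7.0% of all genes tested and 10.7% of those with a mean count of at least 100. Beside SUPT16H and SSRP1 these were NASP and CHAF1A. The TPM of CHAF1A overlapped between the groups, at 57.76 and 45.83 untreated and 49.06 and 59.98 with hemin. The remaining genes past the threshold were the checkpoint kinase gene CHEK1, TICRR and RECQL4 of origin firing, CLSPN and SLBP, CUL4A and DDB1 of the ligase that degrades CDT1, and RNASEH2C, which had the highest value (0.42, edgeR adjusted p = 0.026). The 4 genes of alternative clamp loading and clamp removal (CHTF18, CHTF8, DSCC1 and ATAD5) all had negative values between -0.28 and -0.06, and none passed. POLD4 had the lowest value, with 16.6 and 10.02 CPM untreated and 10.1 and 8.68 CPM with hemin (-0.51, edgeR adjusted p = 0.18). Its groups overlapped, and RSEM's uncertainty in dividing its reads (posterior SD) came to 10.5% of the count.

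Genes of cell division and of the E2F network were read beside these sets. Of 20 mitosis genes, 1 passed upward and 1 downward, against 7.0% and 7.14% of all genes tested. The median log2 fold change of the 20 was -0.01. CENPF, a kinetochore protein, had 285 and 279 CPM untreated and 309 and 340 CPM with hemin (0.20, edgeR adjusted p = 0.029). AURKB, the kinase of the chromosomal passenger complex, had 46.3 and 51.1 CPM untreated and 33.2 and 40.7 CPM with hemin (-0.39, edgeR adjusted p = 0.034). Each kept its call in 1 of the 4 fits that left out a library, and DESeq2 gave AURKB an adjusted p of 0.059. Of 13 genes for E2F factors, their DP partners and the pocket proteins that restrain them, 3 passed upward and 1 downward. The shares over all genes tested were the same 7.0% and 7.14%, and the median of the 13 was 0.10. E2F4 had the smallest p upward, with 58.5 and 59.95 CPM untreated and 70.2 and 77.7 CPM with hemin (0.32, edgeR adjusted p = 0.017). RBL2, which encodes the pocket protein p130, fell from 96.3 and 94.1 CPM to 73.2 and 76.2 CPM (-0.35, edgeR adjusted p = 0.0047). Its TPM overlapped between the groups, at 27.69 and 28.12 untreated and 21.8 and 27.71 with hemin. RBL2 kept its call whichever library was left out, and E2F4 in 1 of the 4 fits. The other pocket protein genes went the other way. RBL1 passed upward with edgeR (0.37, edgeR adjusted p = 0.035) but not with DESeq2 (DESeq2 adjusted p = 0.20). RB1 was higher in both hemin libraries without passing (0.21, edgeR adjusted p = 0.13). E2F1 had overlapping groups (-0.06, edgeR adjusted p = 0.81). Whether these lists differ from the 45 members was not tested.

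**Figure D4:**
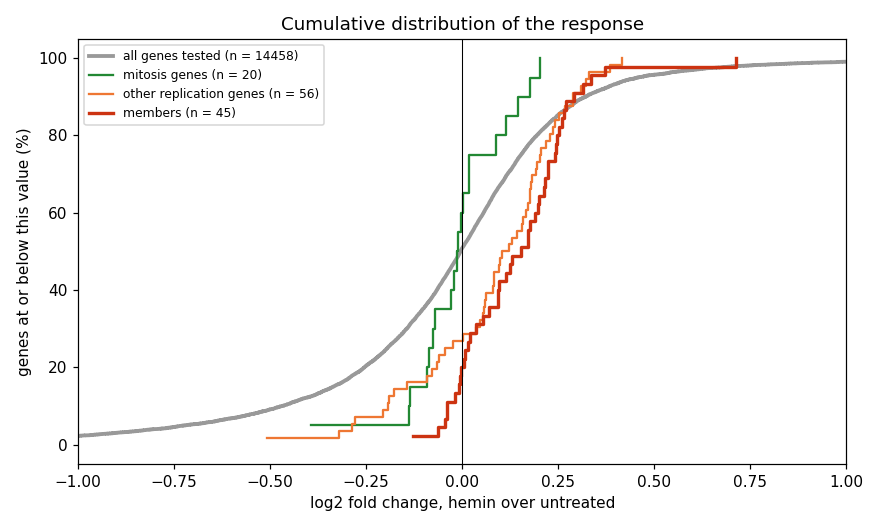
Cumulative share of genes (y axis, %) with a log2 fold change at or below the value on the x axis, for the members, the other replication genes, the mitosis genes and all genes tested. The curves of both replication sets are shifted to the right of 0 around medians of 0.15 and 0.11, while those of the mitosis genes (-0.01) and of all genes (-0.0048) cross 50% near 0.

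How many members passed depended on the fit, while their direction mostly did not. Among the 15 genes, 5 (CDT1, MCM4, MCM5, MCM7 and TYMS) passed whichever library was left out. A total of 7 members passed without untreated replicate 1, 9 without untreated replicate 2, and 11 without either hemin replicate. DESeq2 called 10 members and limma on log2(TPM + 1) called 1, MCM5, which was the one member called in all 13 alternatives. No member passed downward in any of them. The plot of the alternatives shows that all 15 genes stayed positive, except RRM2 on the TPM scales.

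**Figure D5:**
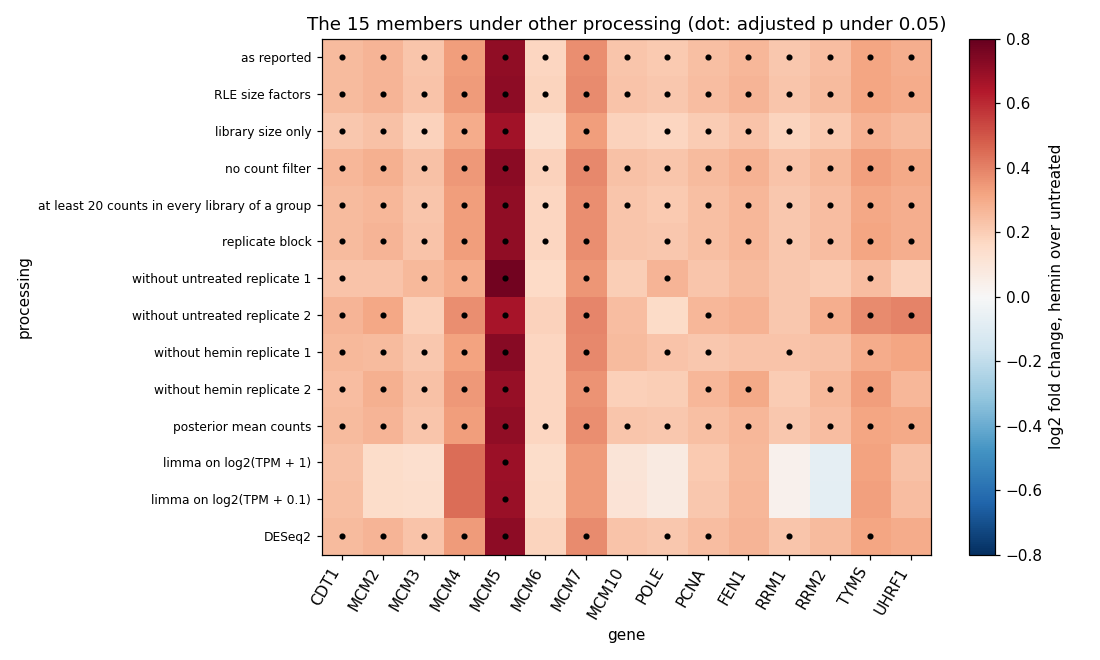
Log2 fold change (colour) of the 15 members past the threshold (columns) under the reported processing and 13 alternatives (rows), with a dot where the adjusted p is under 0.05. MCM5 carries a dot in every row, CDT1, MCM4, MCM7 and TYMS in every row but the limma rows, and RRM2 alone turns blue, at -0.07 to -0.08 on the TPM scales.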

How the data were processed

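Per the study's methods, the authors trimmed single-end 50-base reads with Trimmomatic 0.39 and ran RSEM 1.3.1 with STAR on Ensembl 106 for each replicate, with no strand option named. The deposited expected counts are RSEM's estimated counts per gene, not normalized, and reads shared between genes are divided. The deposited posterior mean counts and their SD describe that division. The authors' TPM and lengths come from the same run, and their FPKM was not used.

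Expected counts were rounded to whole numbers, reduced by filterByExpr to 14458 genes, given TMM factors and fitted with edgeR 4.0.16 in R 4.3.3 (quasi-likelihood test, condition only, Benjamini-Hochberg over all genes tested, threshold 0.05). CPM use the TMM-scaled library sizes. The 13 alternatives were RLE factors, library size only, no filter, a minimum of 20 counts, a replicate block, each library left out, posterior mean counts, limma 3.58.1 on log2 TPM with a pseudocount of 1 or 0.1, and DESeq2 1.42.0. The permutation test used scipy 1.17.1. On simulated data for hemin against untreated (14467 genes), 60 of 100 genes changed 1.3-fold and 89 of 100 changed 2-fold were called. There were 10 false calls, and changes of 1.3-fold were often missed. The changed genes were drawn from all with a mean of at least 20 counts, under 1 common dispersion. Recovery at the depth of the members, and of the smaller changes that most of them showed, was not measured. A count of 0 allows up to 3 counts, which covers counting error only. Intervals are at 95%, from the fit.

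Members and lists were chosen with earlier results of these data known. By rule, library values are given for members past the threshold and for the highest and lowest of each role, for the 3 other replication genes with the smallest p in each direction among those past the threshold and the extremes of that list, and for the smallest p in each direction in the mitosis and E2F lists. Coordinates are from GENCODE 44, which held 99.8% of gene IDs.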

Additional observations from a re-analysis of the deposited data

How the results depend on the processing

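MCM5 passed in all 13 alternatives, and no member passed downward in any. The count of 15 members was 7 to 11 with 1 library left out, and 1 and 1 with limma on log2(TPM + 1) and log2(TPM + 0.1), scales that also take in RSEM's effective length and on which few genes passed at all (14 and 15 upward, 33 and 34 downward). The replicate block gave 14 members, with MCM10 lost. Same-numbered libraries did not deviate together (correlation 0.0047), so the numbers were not taken as pairs. DESeq2 gave 589 of all genes upward and 505 downward, against 1012 and 1033, and leaving out 1 library gave 451 to 856 and 487 to 862. The median of the members was 0.11 by library size only, where all genes centred on -0.04, 0.14 to 0.19 without 1 library, and 0.067 and 0.067 with limma. The 13 other replication genes became 8 by library size only, 6 with DESeq2, 3 to 9 without 1 library, and 0 and 0 with limma. Downward, 1 passed by library size only, 1 with a minimum of 20 counts throughout 1 group and 1 with posterior mean counts (ETAA1 each time), and 0 to 2 without 1 library (POLD4 without untreated replicate 2, CHTF8 and DTYMK without hemin replicate 1). The cause of these differences was not tested.

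Signs turned for members that were not called, most of them near 0, and for RRM2 with limma (-0.075 and -0.076). With limma on log2(TPM + 1) and log2(TPM + 0.1), ORC4 became -0.015 and -0.015, ORC6 -0.10 and -0.11, GINS3 -0.0063 and -0.0067, POLA2 0.025 and 0.026, PRIM2 -0.12 and -0.13, POLD3 0.0063 and 0.0074, POLE2 -0.046 and -0.047, and RFC1 0.15 and 0.16. By library size only, ORC4 was -0.017, GINS4 -0.035, RFC4 -0.0026, RPA2 -0.031 and TK1 -0.023. Without a count filter, ORC2 was 0.0055, CDC45 0.0082 and RFC1 0.0043. CDC45 was 9.4e-04 with RLE factors and 2.1e-04 with DESeq2, and POLA2 was 0.016 with posterior mean counts. With 1 library left out, values spanned -0.082 to 0.070 for ORC2, -0.083 to 0.12 for ORC4, -0.067 to 0.16 for ORC6, -0.063 to 0.056 for CDC45, -0.16 to 0.091 for GINS1, -0.081 to 0.080 for GINS4, -0.10 to 0.068 for POLA2, -0.038 to 0.29 for PRIM2, -0.092 to 4.6e-04 for POLD3, -0.16 to 0.38 for POLE2, -0.022 to 0.0064 for RFC1, -0.042 to 0.24 for RFC3, -0.032 to 0.10 for RFC4, -0.043 to 0.057 for RPA2 and -0.0084 to 0.042 for TK1. A library left alone in its group was assumed to vary like the others.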

Other observations

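For 31 of the 56 other replication genes both hemin libraries lay above both untreated ones, and for 9 below. Over all genes tested, 28.1% lay above and 29.3% below. Several of the 56 had separate groups without passing the threshold, and the genes named here were picked out after their values were seen. MCMBP, which binds MCM subunits outside the ring, had 59.0 and 65.7 CPM untreated and 80.1 and 70.3 CPM with hemin (log2 fold change 0.27, edgeR adjusted p = 0.058). Among the 9 genes lower in both hemin libraries was CDC7, the kinase that fires licensed origins. It had 53.4 and 54.1 CPM untreated and 45.7 and 48.1 CPM with hemin (-0.19, edgeR adjusted p = 0.098). Its TPM overlapped, at 28.42 and 30.09 untreated and 28.65 and 27.96 with hemin. Another was ETAA1, an activator of the checkpoint kinase ATR. It had 38.2 and 41.9 CPM untreated and 31.3 and 34.2 CPM with hemin (-0.29, edgeR adjusted p = 0.062). ENSG00000285816, which shares exonic bases with POLA2, was given 69 and 0 expected counts in the untreated libraries and 56.3 and 66.5 in the hemin libraries.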
